A study of Homo sapiens with 21 samples.

Results

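The MYC and MAX network was described in 21 RNA-seq libraries of MDA-MB-453, a human breast cancer cell line labelled WT in genotype. Its 8 members were taken by gene name from the 58735 genes of the deposited table: MYC, MYCN, MYCL, MAX, MXD1, MXD4, MXI1 and MNT. Each of 7 groups held 3 libraries: control (no treatment), calcium at 10 mM, cadmium at 10 μM, GSK4716 at 5 μM, DES at 10 μM, and DES combined with either metal at these doses. GSK4716 is a synthetic agonist of the estrogen-related receptors, and DES (diethylstilbestrol) was used as the antagonist of ESRRB, the receptor under study. Both were dissolved in ethanol, and the labels name no control with ethanol. Ethanol therefore cannot be told apart from DES or GSK4716 in comparisons with groups given neither. All cells had first been kept for 24 h in medium with 5% charcoal-stripped serum, and treatments lasted 24 h. Calcium and GSK4716 were then given without serum and cadmium in 1% charcoal-stripped serum, while the labels name a single control group, so medium and treatment cannot be told apart for at least 1 of these treatments. In the combinations DES went in 3 h ahead of the metal, so a longer time with DES cannot be told apart from the metal either. The labels do not say whether replicates were separate cultures, so the p-values measure the spread between these libraries.

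MYC, MYCN and MYCL are basic helix-loop-helix leucine zipper proteins that bind DNA only as dimers with MAX, a small protein with no activation domain of its own. These dimers bind E-boxes and recruit histone acetyltransferase complexes that raise transcription of genes for ribosome production, nucleotide synthesis and growth. MXD1, MXD4, MXI1 and MNT compete for MAX and, on the same E-boxes, bring in SIN3 and histone deacetylases that lower transcription. MXD proteins are known to rise as cells stop dividing and differentiate, while MNT is present in dividing and resting cells alike. MYC is amplified or overexpressed in many breast cancers, MYCN is best known from neuroblastoma and MYCL from small cell lung cancer.

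The other members beside MYC, whose place is given with its values, were located on GRCh38. In the gene models of the deposited table MYCN (ENSG00000134323) lay on chromosome 2 from 15940564 to 15947007. MYCL (ENSG00000116990) lay on chromosome 1 from 39895426 to 39902256, and MAX (ENSG00000125952) on chromosome 14 from 65006174 to 65102695. Among the repressors MXD1 (ENSG00000059728) lay on chromosome 2 from 69897688 to 69942945 and MXD4 (ENSG00000123933) on chromosome 4 from 2247432 to 2262294. MXI1 (ENSG00000119950) lay on chromosome 10 from 110207605 to 110287365 and MNT (ENSG00000070444) on chromosome 17 from 2384060 to 2401118. MAX and FNTB share sequence on opposite strands, and MXD1 shares its first part with SNRNP27 on the same strand, so reads of these pairs may have been divided by the counting.

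Promoter windows of 250 bases before the RefSeq start (GRCh38.p14) were taken for 7 of the 8 members, as 10 windows since some genes have several starts. MYC was not among these 7, so the counts of matches in the 10 windows do not cover it. The E-box CACGTG, which reads the same on both strands, occurred in 2 of the 10 windows, those of MXD4 and MNT, against 6.34% of all 35116 windows. The core of the estrogen-related receptor element, AAGGTCA on either strand, occurred in 0 of the 10, against 3.44% of all windows. The windows of the 4 members that passed the test in at least 1 comparison are printed 5′ to 3′, with the E-box in capitals. They are chr1:39901918-39902167 (minus strand) for MYCL, chr2:69914859-69915108 (plus strand) for MXD1, chr4:2262110-2262359 (minus strand) for MXD4 and chr17:2401061-2401310 (minus strand) for MNT. The gene models of the deposited table begin further upstream than these starts and reach into each of the 4 windows.
MYCL: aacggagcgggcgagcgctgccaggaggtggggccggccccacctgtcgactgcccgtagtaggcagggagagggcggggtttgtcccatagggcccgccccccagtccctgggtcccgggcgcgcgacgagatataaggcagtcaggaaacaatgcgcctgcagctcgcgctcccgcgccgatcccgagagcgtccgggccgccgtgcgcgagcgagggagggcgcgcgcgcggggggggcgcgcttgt
MXD1: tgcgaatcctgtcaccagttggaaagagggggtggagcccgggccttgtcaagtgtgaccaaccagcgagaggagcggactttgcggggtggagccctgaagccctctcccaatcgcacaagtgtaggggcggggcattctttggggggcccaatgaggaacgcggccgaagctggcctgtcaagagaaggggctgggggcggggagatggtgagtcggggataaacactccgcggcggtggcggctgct
MXD4: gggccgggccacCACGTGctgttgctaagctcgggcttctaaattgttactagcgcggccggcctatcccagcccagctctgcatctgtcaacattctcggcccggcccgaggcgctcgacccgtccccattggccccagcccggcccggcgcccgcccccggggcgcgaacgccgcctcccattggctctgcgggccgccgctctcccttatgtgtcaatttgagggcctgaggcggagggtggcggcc
MNT: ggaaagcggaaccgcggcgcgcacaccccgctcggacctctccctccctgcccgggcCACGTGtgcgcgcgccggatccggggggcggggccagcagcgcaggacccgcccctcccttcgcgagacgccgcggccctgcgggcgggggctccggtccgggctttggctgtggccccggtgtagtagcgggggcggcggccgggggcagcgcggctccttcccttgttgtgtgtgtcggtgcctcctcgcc
In MXD4 the E-box began 238 bases before the start and in MNT 193 bases before it. These matches are of letters only and no binding was measured.

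Libraries held 14435925 to 28424805 fragments assigned to genes. Luminal breast markers such as KRT8, KRT18, GATA3 and EPCAM were present in every library, the lowest of these being EPCAM at 50.9 FPKM. Of 8 markers of basal, fibroblast, leukocyte and endothelial cells, 7 stayed at or below 1.07 FPKM, and COL1A1 ranged from 9.34 to 32.7 FPKM. In one cell line, as in any bulk sample, fewer cells that express a gene and less RNA per cell cannot be told apart. The deposited values carry a scaling between libraries beyond the number of fragments. Dividing by total fragments on genes instead moved the median log2 fold change of all genes from 0.05 to -0.13 for DES against control and from -0.08 to -0.39 for DES with cadmium against cadmium. The direction of every member change that passed the test was the same with either scaling.

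In FPKM, which is per gene length, MXD4 and MYC were the most abundant members in control cells, at 16.4 ± 1.76 and 10.7 ± 0.836 FPKM (SD, n = 3), with MAX at 9.19 ± 2.15. MXI1 stood at 2.69 ± 0.493, MNT at 2.66 ± 0.167 and MXD1 at 2.59 ± 0.373 FPKM. MYCN at 1.05 ± 0.0197 and MYCL at 0.801 ± 0.103 FPKM were the lowest. MYC therefore made up 85.2% ± 0.402 of the summed FPKM of the MYC family, and MXD4 67.3% ± 0.866 of that of the 4 repressors. MYCN averaged 0.487 FPKM and 24.6 fragments over the 21 libraries, which is under the minimum of 0.5 FPKM used for testing, so 7 of the 8 members were tested.

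**Figure D1:**
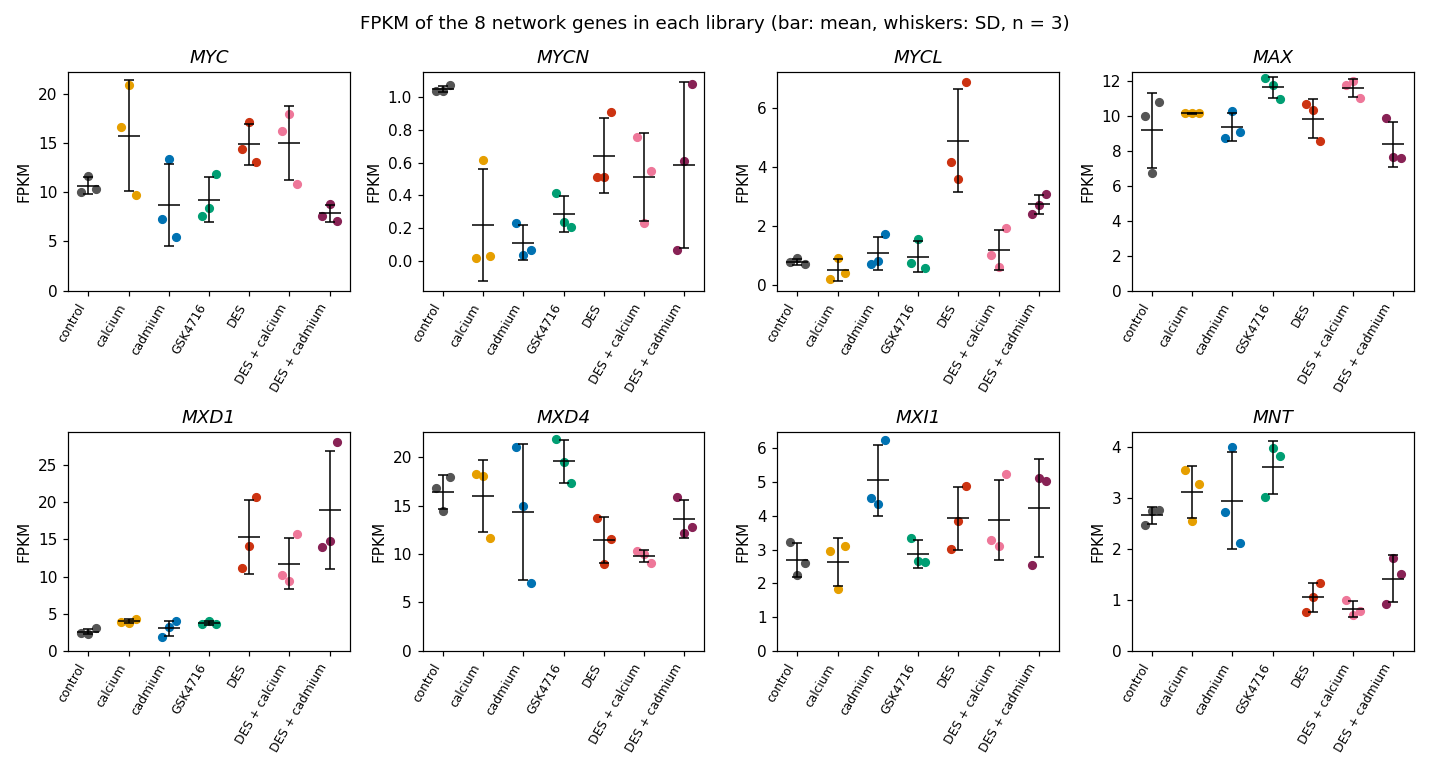
Level (FPKM) of each network gene in each of the 21 libraries, one panel per gene with its own linear axis; points are libraries, the short bar is the group mean and the whiskers are the SD (n = 3). The 9 libraries with DES stand above the other 12 for MXD1 (9.33 to 28.1 against 1.92 to 4.35 FPKM) and below them for MNT (0.71 to 1.83 against 2.12 to 3.99 FPKM).

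Of the 4 single treatments, DES was the one with members past the threshold. MXD1 and MYCL rose and MNT fell with DES. These were 3 of the 7 members tested, beside 29.6% of all genes called in that comparison (limma, adjusted p under 0.05 over 14686 genes). The 29.6%, 4340 genes, went to 1930 without control replicate 1, 2128 without control replicate 2 and 10334 with arrayWeights. The groups did not overlap for 6 of the 8 members, against 48.8% of all genes. The median log2 fold change of the 7 members was 0.47, against 0.05 for all genes. With so many genes called, the count of members is no result about the network, and the description turns on which members moved and by how much.

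MXD1, the repressor known for its rise at the end of proliferation, stood at 2.43, 2.33 and 3.02 FPKM in the control and at 11.1, 14.2 and 20.7 FPKM with DES. Every DES library lay above every control library. The log2 fold change of (FPKM + 0.1) was 2.48 ± 0.26 (SE; limma, adjusted p = 0.00139), or 5.58-fold, resting on 313 to 498 fragments per control library and 1594 to 2182 per DES library. Over all alternatives run, the log2 fold change kept between 2.15 and 2.69 and passed the threshold in each. SNRNP27, the splicing gene that overlaps MXD1 on the same strand, rose with DES by 0.85 ± 0.17 on the same scale (limma, adjusted p = 0.0126), and its part in the MXD1 count was not tested.

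MXD1 also rose when DES was present with either metal. With calcium it stood at 3.83, 3.81 and 4.35 FPKM and with DES and calcium at 10.2, 9.33 and 15.7 FPKM, a log2 fold change of 1.49 ± 0.23 (limma, adjusted p = 0.00509) in a comparison where 35.1% of all genes were called. That call was lost without a filter on low values (limma, adjusted p = 0.0756). With cadmium it stood at 1.92, 3.17 and 3.995 FPKM and with DES and cadmium at 13.98, 14.8 and 28.1 FPKM. The groups stood apart again, and the log2 fold change was 2.59 ± 0.39 (limma, adjusted p = 0.0305), where 9.89% of all genes were called. This last call did not hold without cadmium replicate 1 (limma, adjusted p = 0.0820), cadmium replicate 2 (0.163), cadmium replicate 3 (0.0887) or DES with cadmium replicate 3 (0.0811), the library with the highest MXD1 value of all. It was also lost without the filter (0.111) and with a replicate block (0.0656), while the log2 fold change ranged from 2.26 to 3.01 over all alternatives.

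MNT, the repressor expressed through the cell cycle, moved the other way. It stood at 2.46, 2.74 and 2.77 FPKM in the control and at 0.765, 1.05 and 1.34 FPKM with DES, with 399 to 695 and 151 to 193 fragments per library. No DES library reached the lowest control library. The log2 fold change was -1.29 ± 0.26 (limma, adjusted p = 0.0124), or 2.44-fold lower. The call was lost by a narrow margin without control replicate 1 (limma, adjusted p = 0.0529), without control replicate 2 (0.056) and without the filter on low values (0.0515). With calcium MNT stood at 3.54, 2.54 and 3.26 FPKM and with DES and calcium at 1.00, 0.710 and 0.774 FPKM. That log2 fold change of -1.79 ± 0.27 (limma, adjusted p = 0.00485) passed the threshold in every alternative run. With cadmium the values were 2.72, 3.99 and 2.12 FPKM and with DES and cadmium 0.926, 1.83 and 1.502 FPKM. These groups did not overlap either, but the log2 fold change of -1.01 ± 0.40 missed the threshold (limma, adjusted p = 0.136), passing it with all 7 groups in 1 fit (0.00928) and with arrayWeights (0.00366).

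MXD4, the most abundant repressor, stood at 16.8, 14.5 and 17.9 FPKM in the control and at 13.7, 8.98 and 11.5 FPKM with DES. The groups did not overlap, and the log2 fold change of -0.54 ± 0.19 missed the threshold (limma, adjusted p = 0.0774). It passed with total-fragment scaling (0.0206), quantile normalization (0.0281), arrayWeights (1.77e-04) and without DES replicate 1 (0.0287). MXD4 fell with DES and calcium, at 10.3, 9.99 and 9.12 FPKM, from 18.2, 18.1 and 11.7 FPKM with calcium, a log2 fold change of -0.67 ± 0.21 (limma, adjusted p = 0.0435). This call was lost without any of 5 of the 6 libraries (limma, adjusted p from 0.0958 to 0.127), the exception being calcium replicate 3, the lowest of its group. It was also lost without the filter (0.291) and with all 7 groups in 1 fit (0.0771). MXI1, a repressor close to MXD1 in function, ranged from 3.03 to 4.89 FPKM with DES against 2.25 to 3.22 FPKM in the control, and these ranges overlapped.

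The repressors can also be read as shares of their summed FPKM. Summed over the 4 repressors the control libraries stood at 25.0, 21.8 and 26.3 FPKM and the DES libraries at 28.6, 28.0 and 38.5 FPKM. MXD1 supplied 10.6% ± 0.884 of that sum in the control and 47.7% ± 7.93 with DES (SD, n = 3), MXD4 67.3% ± 0.866 and 36.6% ± 9.86, and MNT 10.99% ± 1.41 and 3.30% ± 0.560. The share of MXD1 was 15.8% ± 3.20 in calcium libraries and 44.1% ± 5.86 once DES was added. In cadmium libraries it was 12.96% ± 7.15, and 48.3% ± 9.54 once DES was added. GSK4716 libraries stood at 12.7% ± 1.09. For the share of MXD1 the ranges with and without DES did not overlap, whether the metal was absent, calcium or cadmium, and in 4 of the 9 libraries with DES MXD1 supplied 50.5% to 59.3% of the sum.

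**Figure D2:**
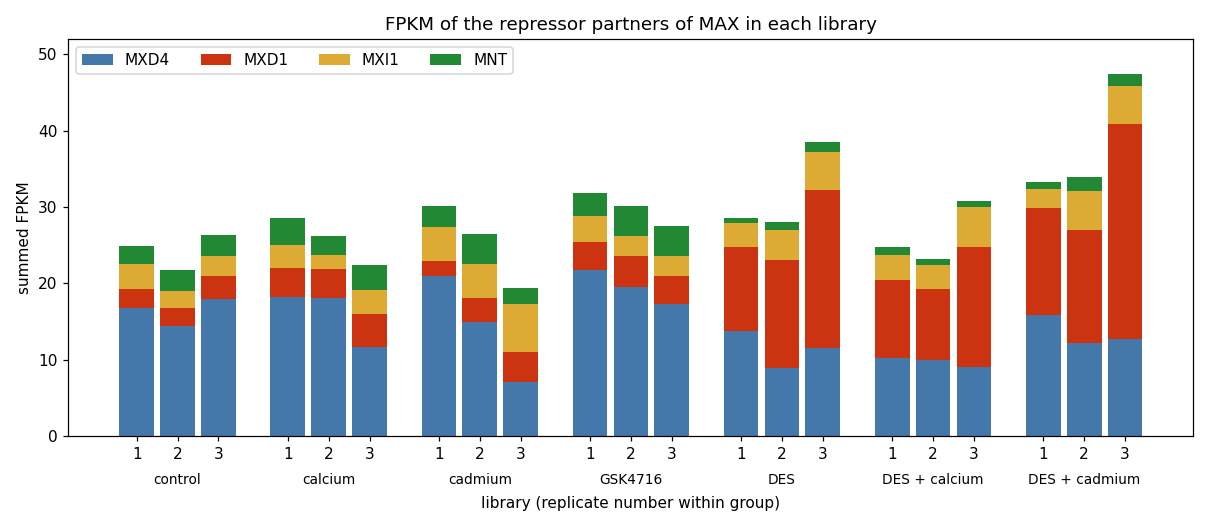
Stacked bars of summed FPKM of the 4 repressor partners of MAX (MXD4, MXD1, MXI1 and MNT) in each library, ordered by group and replicate number, with an axis that starts at 0. The MXD1 segment is 1.92 to 4.35 FPKM tall in the 12 libraries without DES and 9.33 to 28.1 FPKM in the 9 with DES.

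On the activator side MYCL, the family member of restricted expression, rose most with DES. It stood at 0.770, 0.916 and 0.717 FPKM in the control and at 4.19, 3.61 and 6.89 FPKM with DES, on 60 to 126 and 342 to 578 fragments per library. The groups lay far apart. The log2 fold change was 2.42 ± 0.29 (limma, adjusted p = 0.00232), or 5.36-fold, and it passed the threshold in every alternative in which MYCL was tested, with values from 1.67 to 2.61. With DES and calcium MYCL stood at 1.02, 0.603 and 1.94 FPKM, below every DES library and overlapping the 0.204, 0.915 and 0.423 FPKM of calcium alone. The log2 fold change between DES with calcium and DES was -2.04 ± 0.46 (limma, adjusted p = 0.200), which passed with all 7 groups in 1 fit (0.0432) and with arrayWeights (0.0495). With DES and cadmium the values of 2.41, 2.72 and 3.08 FPKM lay below every DES library and above the 0.717, 0.806 and 1.73 FPKM of cadmium. The log2 fold change of MYCL was -0.77 ± 0.32 against DES (limma, adjusted p = 0.480) and 1.35 ± 0.41 against cadmium (0.0779). Against cadmium it passed with quantile normalization (0.0438), all 7 groups in 1 fit (0.0317), arrayWeights (0.0011) and limma-voom (0.0470).

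MYC itself (ENSG00000136997), the broadly expressed activator, lies on chromosome 8 from 127735434 to 127741434 (GRCh38). It stood at 10.1, 11.6 and 10.3 FPKM in the control and at 14.4, 17.1 and 13.03 FPKM with DES. The DES libraries all lay above the control libraries, but the log2 fold change of 0.47 ± 0.16 (95% confidence interval 0.09 to 0.85) missed the threshold (limma, adjusted p = 0.0645), passing it with arrayWeights (2.29e-04) and without DES replicate 3 (0.0455). Calcium libraries stood at 16.6, 20.9 and 9.73 FPKM of MYC, cadmium libraries at 7.29, 13.4 and 5.47 FPKM and GSK4716 libraries at 7.53, 8.35 and 11.8 FPKM. Each of these groups overlapped the control. Their log2 fold changes were 0.49 ± 0.28, -0.39 ± 0.32 and -0.23 ± 0.18 (limma, adjusted p = 0.362, 0.475 and 0.580), and the one for cadmium turned to 0.29 with arrayWeights.

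The lowest mean of MYC was that of DES with cadmium, with libraries at 7.58, 8.82 and 7.12 FPKM, on 366 to 388 fragments. All 3 lay below all 3 DES libraries. The log2 fold change against DES was -0.91 ± 0.21 (limma, unadjusted p = 0.00404, adjusted p = 0.199), and it passed with arrayWeights (0.00614). With DES and calcium MYC stood at 16.2, 17.96 and 10.8 FPKM, and the log2 fold change against DES was -0.01 ± 0.23 (limma, adjusted p = 0.991, 95% confidence interval -0.56 to 0.54). Against the metal alone it was -0.03 ± 0.33 for calcium (limma, adjusted p = 0.947) and -0.06 ± 0.36 for cadmium (0.928), the latter passing with arrayWeights at -0.74 (0.0479). The means fell in the order calcium, DES with calcium, DES, control, GSK4716, cadmium, DES with cadmium, and the ranges of neighbours in that order overlapped except for DES and control.

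**Figure D3:**
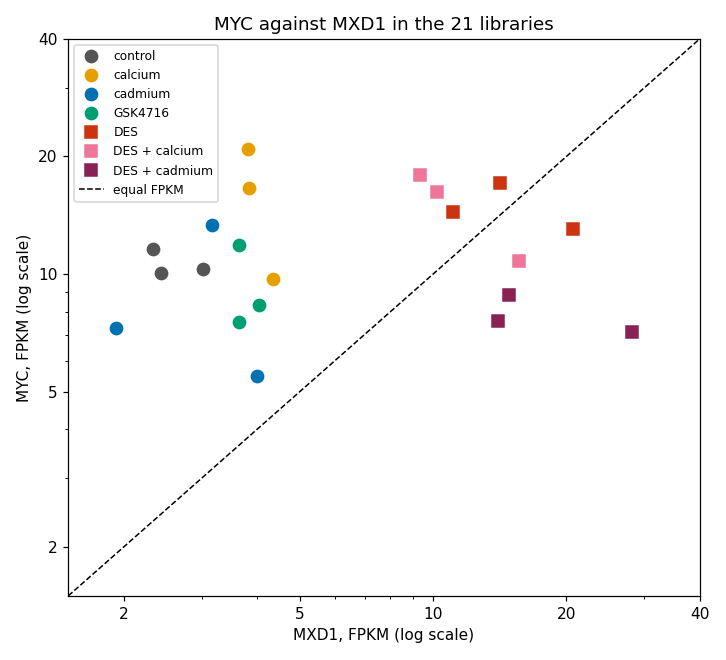
Level (FPKM, log scales) of MYC against MXD1 in the 21 libraries; circles are libraries without DES, squares libraries with DES, and the dashed line marks equal FPKM. All 12 libraries without DES lie above the line. All 3 libraries of DES with cadmium lie below it, as do replicate 3 of DES and replicate 3 of DES with calcium.

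The ratio of MYC to MXD1 in FPKM joins these changes in 1 value. It was 4.15, 4.98 and 3.41 in the control libraries and 1.30, 1.21 and 0.629 with DES. With DES and calcium it was 1.59, 1.93 and 0.690, and with DES and cadmium 0.542, 0.595 and 0.254. No library with DES reached the lowest ratio of the control, and the lowest mean ratio was that of DES with cadmium, at 0.464 ± 0.184 (SD, n = 3). Calcium at 4.02 ± 1.65, cadmium at 3.13 ± 1.54 and GSK4716 at 2.46 ± 0.683 also held libraries below the lowest control ratio. The share of MYCL in the summed FPKM of the MYC family was 6.40% ± 0.415 in the control and 24.0% ± 8.24 with DES. Adding calcium to DES gave 7.82% ± 5.98, and adding cadmium gave 24.5% ± 2.51.

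MYCN, the family member of the nervous system and of embryonic tissue, was near the limit of detection. It stood at 1.03, 1.04 and 1.07 FPKM in the control, on 87, 57 and 46 fragments. Calcium libraries held 1, 28 and 2 fragments (0.0172, 0.616 and 0.0343 FPKM), cadmium libraries 11, 2 and 3 (0.232, 0.0378 and 0.0702 FPKM) and GSK4716 libraries 19, 11 and 13 (0.413, 0.238 and 0.210 FPKM). All 9 lay below the control libraries. In the fit without a filter on low values the log2 fold changes of (FPKM + 0.1), which understate the change of so low a gene, were -2.36 ± 0.77, -2.53 ± 0.38 and -1.60 ± 0.22 (limma, adjusted p = 0.508, 0.188 and 0.407). Limma-voom on the recovered fragments, also without the filter, put them past the threshold at -3.72, -3.47 and -1.91 (adjusted p = 0.00851, 0.00838 and 0.0229). A minimum of 10 fragments on average in place of the FPKM minimum, chosen after seeing the data, gave adjusted p = 0.0292 for cadmium (limma). Leaving out cadmium replicate 1 also passed it (0.0218), as did arrayWeights (0.0475).

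With DES MYCN stood at 0.510, 0.513 and 0.905 FPKM (30, 25 and 39 fragments), again below the control in all 3 libraries, with a log2 fold change of -0.67 ± 0.24 (limma without filter, adjusted p = 0.325; 0.00545 with arrayWeights). DES with calcium gave 0.757, 0.231 and 0.549 FPKM and DES with cadmium 0.0717, 0.610 and 1.08 FPKM. These spread across the range of the other groups, and each overlapped both DES and its metal alone. The antisense gene MYCNOS, which overlaps MYCN on the other strand, had at most 13 fragments in a library.

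MAX is the partner shared by both sides. Its group means ran from 8.38 FPKM with DES and cadmium to 11.7 FPKM with GSK4716, and the single libraries from 6.74 to 12.2 FPKM, on 469 to 1434 fragments. Over the 10 comparisons its log2 fold changes lay between -0.29 and 0.37 and none passed the threshold, while with arrayWeights DES with cadmium against cadmium passed at -0.39 (adjusted p = 0.0263). GSK4716 libraries, at 12.2, 11.8 and 11 FPKM, all lay above the control libraries at 10.0, 6.74 and 10.8 FPKM (log2 fold change 0.37 ± 0.19; limma, adjusted p = 0.388).

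The metals and GSK4716 without DES left every tested member short of the threshold. Calls among all genes came to 7.12% with calcium, 0.15% with cadmium and 0% with GSK4716 (limma), while 23.5%, 25.9% and 16.4% had an unadjusted p under 0.05, as did 1, 1 and 2 of the 7 members in the same order. The calls among all genes rested on single libraries and on the fit. For calcium they went from 1046 genes to 7 when control replicate 1 was left out and 46 when control replicate 2 was, and for cadmium from 22 to 1605 without cadmium replicate 1 and 1026 with all 7 groups in 1 fit. With limma-voom 1581, 488 and 87 genes were called in the 3 comparisons and 0 of the 7 members in each. MYCN was not in those fits, and its limma-voom values given above come from fits without the filter. MXD1 was above every control library with calcium, at a log2 fold change of 0.61 ± 0.17 (limma, adjusted p = 0.0945; 0.0329 with arrayWeights). It was also above them with GSK4716, at 3.65, 4.04 and 3.65 FPKM and a log2 fold change of 0.53 ± 0.15 (0.201; 0.0401 with arrayWeights). MXI1 stood highest with cadmium, at 4.54, 4.35 and 6.26 FPKM against 3.22, 2.25 and 2.60 FPKM in the control. All 3 lay above the control, with a log2 fold change of 0.88 ± 0.22 (limma, adjusted p = 0.0958; 0.0182 with arrayWeights). MNT with GSK4716 stood at 3.01, 3.96 and 3.82 FPKM, above the control, at 0.41 ± 0.15 (0.266). Groups did not overlap for 2, 2 and 4 of the 8 members in that order, against 29.6%, 34.4% and 22.1% of all genes.

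Adding a metal to DES left 0 of the 7 members past the threshold with calcium and 0 of 7 with cadmium (limma). Of all genes 0.136% and 0.266% were called there. Those 20 and 39 genes went to 0 and 0 with the replicate block and with limma-voom. They went to 166 and 603 with all 7 groups in 1 fit, and to 0 to 41 and 0 to 96 when a library was left out. At an unadjusted p under 0.05 there were 1 and 2 members (13.2% and 10.4% of all genes), and with limma-voom 0 and 0. Groups did not overlap for 2 of the 8 members with either metal, against 19.9% of all genes with calcium and 16.2% with cadmium. These were MYCL (lower) and MAX (higher) with calcium, and MYC and MYCL (both lower) with cadmium. The comparisons of DES with a metal against that metal called 3 of 7 and 1 of 7 members, against 35.1% and 9.89% of all genes. The 9.89% for cadmium, 1453 genes, went to 0 with the replicate block, without cadmium replicate 1, 2 or 3 or without DES with cadmium replicate 3, and to 5459 genes with all 7 groups in 1 fit. The groups did not overlap for 4 and 3 of the 8, against 50.8% and 40% of all genes. All these comparisons share libraries with those against control or DES, so their values are given side by side and are not independent of each other.

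The interaction asked whether a metal acted differently with DES than without it. It called 0 of the 7 members for calcium, where 3.63% of all genes passed, and 0 of 7 for cadmium, where 1.18% did (limma). Those 533 and 173 genes became 181 to 830 and 15 to 410 when a library was left out. The members at an unadjusted p under 0.05 were 1 and 0 (19.9% and 18.5% of all genes), and those called with limma-voom 0 and 0. The member with the lowest unadjusted p for calcium was MXD1, at -0.98 ± 0.35 (limma, adjusted p = 0.147; 0.0176 with arrayWeights). For MYCL the interaction was -1.32 ± 0.68 with calcium (0.309) and -1.07 ± 0.49 with cadmium (0.271). For MYC it was -0.50 ± 0.38 and -0.52 ± 0.40 (0.501 and 0.510), and the latter passed with arrayWeights (0.00165). For MNT it was -0.50 ± 0.35 and 0.28 ± 0.46 (0.470 and 0.776), and for MXD1 with cadmium 0.11 ± 0.49 (0.931).

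**Figure D4:**
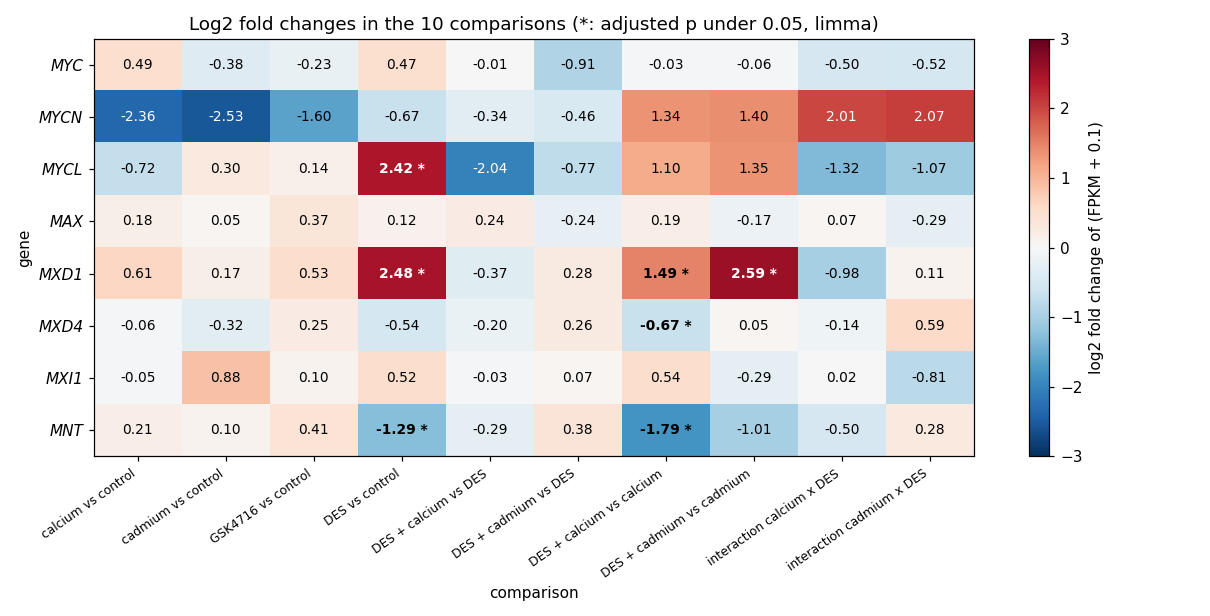
Log2 fold change of (FPKM + 0.1) of the 8 members (rows) in the 10 comparisons (columns), with the value in each cell; red is higher, blue lower, and an asterisk marks a limma adjusted p under 0.05 (MYCN comes from the fit without a filter and carries no asterisk). The 7 marked cells all belong to comparisons of DES with a group without it: MXD1 in 3, MNT in 2, MYCL and MXD4 in 1 each.

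Other genes of the network were read from lists of textbook members. MXD3, an MXD repressor linked to the S phase of dividing cells, fell with calcium, at 2.83, 2.70 and 2.65 FPKM against 8.87, 10.9 and 6.26 FPKM in the control, a log2 fold change of -1.60 ± 0.22 (limma, adjusted p = 0.0185). With DES and calcium it stood at 8.997, 6.65 and 8.65 FPKM, back within the range of the control, and the interaction was 1.59 ± 0.34 (0.0304). The calcium call of MXD3 was lost with the replicate block, without the filter, without control replicate 1 or 2 and without calcium replicate 1 or 2. Its interaction was lost with all 7 groups in 1 fit, without the filter and without 7 of the 12 libraries, 1 at a time. MLXIP, the partner of MLX that senses glucose, fell with DES by 0.82 ± 0.23 on the log2 scale (0.0352) and with DES and calcium against calcium by 1.22 ± 0.22 (0.00823). The DES call of MLXIP was lost with the replicate block, without the filter and without any 1 library except DES replicate 3. MGA and MLX passed in none of the 10 comparisons, and MLXIPL was too low to test.

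The cofactors that MYC and MXD dimers recruit passed in both directions with DES. Of 10 coactivator genes 1 rose and 3 fell, where 16.7% of all genes were called higher and 12.9% lower, among them KAT5, an acetyltransferase, up by a log2 change of 0.62, and TRRAP and EP400, scaffolds of the same complexes, at -0.90 and -0.79 (limma, adjusted p = 0.0283, 0.0239 and 0.0243). None of the 10 was called with the replicate block, without the filter on low values or without control replicate 1, 2 or 3. Among the corepressor genes ZBTB17, the MYC partner on repressed promoters also called MIZ1, rose by 0.89 and SIN3A, the scaffold that MXD proteins bind, fell by 0.62 on the log2 scale (limma, adjusted p = 0.0153 and 0.0473), and no corepressor was called without the filter or without control replicate 1. Of 12 genes that set the stability of MYC protein 2 rose and 3 fell. PIM1, a kinase that stabilizes MYC, rose by 3.00 ± 0.51, and so did GSK3A, a kinase that marks MYC for degradation, by 0.53 ± 0.16 (limma, adjusted p = 0.00719 and 0.0426). GSK3B, a kinase of the same kind as GSK3A, fell by 1.16 ± 0.14, and the deubiquitinase USP7 and the ubiquitin ligase HUWE1 each fell by 0.78 on the log2 scale (limma, adjusted p = 0.00232, 0.0224 and 0.0113). These 5 genes are known to act on MYC protein in opposite ways. The count was 0 higher and 2 lower without the filter, and 1 and 1 without control replicate 1 or 2. The medians of the coactivator and stability lists were 0.03 and -0.21, against 0.05 for all genes.

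Of 48 tested genes that MYC is known to activate 12 rose and 2 fell with DES, with a median of 0.37 (limma). When a library was left out 5 to 16 rose and 1 to 3 fell, with quantile normalization 7 rose and 6 fell, and without the filter 3 of 51 rose. Of 21 tested genes of ribosome biogenesis 8 rose and 0 fell with DES (median log2 fold change 0.68), where 16.7% of all genes were called higher and 12.9% lower. WDR74, needed for the large ribosomal subunit, rose by 2.19 ± 0.14 and GNL3, a nucleolar GTP-binding protein, by 1.24 ± 0.22 (limma, adjusted p = 3.20e-04 and 0.00790). With quantile normalization 5 rose and 1 fell, without the filter on low values 1 rose of 22, and with arrayWeights 16 rose and 2 fell. Without control replicate 1, control replicate 2, control replicate 3 or DES replicate 2 the count was 3, 4, 4 and 4. The median stayed between 0.33 and 0.65 under the 3 other scalings and between 0.51 and 0.75 when a library was left out. Of 12 genes of nucleotide, polyamine and one-carbon synthesis 1 rose, SHMT2, and 1 fell, GART, with a median of -0.0029. Neither was called with the replicate block, with all 7 groups in 1 fit, without the filter, or without control replicate 1, control replicate 2 or DES replicate 2. With total fragments 0 of these 12 rose and 2 fell (median -0.18), and with quantile normalization 0 rose and 3 fell (median -0.21). Of 7 translation genes EIF4A1, an RNA helicase of the cap-binding complex, rose by 2.97 ± 0.29 (limma, adjusted p = 0.00126). Its mean was only 1.07 FPKM in the control and 8.95 FPKM with DES, and whether other genes share its reads was not tested. With arrayWeights 5 of the 7 rose, and with quantile normalization 1 rose and 1 fell. Of 8 tested genes of cell cycle and growth HSPE1 and HSPD1, mitochondrial chaperones, rose by 1.66 and 1.15 and CDC25A, a phosphatase that drives entry into S phase, fell by 1.30 on the log2 scale (limma, adjusted p = 0.00196, 0.0107 and 0.00949). Without the filter 1 of that list rose and 0 fell, and with all 7 groups in 1 fit 0 fell.

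With calcium these activated lists had medians below 0: -0.28 for ribosome biogenesis, -0.50 for nucleotides, -0.09 for translation and -0.33 for cell cycle and growth, against -0.01 for all genes. Without calcium replicate 3 the medians were -0.086, -0.299, 0.067 and -0.187 in the same order, and with arrayWeights that of translation was 0.056. Of their 48 tested genes 0 rose and 3 fell with calcium: SHMT1, CDC25A and CDK4, where 4.6% of all genes were called higher and 2.53% lower. SHMT1 lost its call without any 1 library, and none of the 3 was called without the filter, without control replicate 1 or 2, or without calcium replicate 1 or 3. The same lists stood higher with DES and calcium than with calcium alone. There 12 of 21 ribosome biogenesis genes rose and 1, UTP20, fell (median 0.96), 6 of 12 nucleotide genes rose and 0 fell (median 0.58), and the background was 18.5% called higher and 16.5% lower. FBL, the methyltransferase of ribosomal RNA, rose by 1.57 ± 0.19 and PAICS, a purine synthesis enzyme, by 1.28 ± 0.14 (limma, adjusted p = 0.00287 and 0.00227). The nucleotide count was 4 without DES with calcium replicate 1 and 3 without DES with calcium replicate 2, UTP20 lost its call without any 1 library, and the ribosome count ranged from 9 to 13. Without the filter on low values 2 ribosome and 2 nucleotide genes rose. The interaction of calcium and DES called 0 of the 48 genes (limma), with 9 at an unadjusted p under 0.05, beside 3.63% and 19.9% of all genes.

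Genes that MYC is known to repress passed with DES and with calcium. With DES 3 of 7 tested rose and 0 fell (median 1.01), beside 16.7% of all genes called higher, among them GADD45A, a stress and growth-arrest gene, by 2.80 ± 0.14 and TXNIP, an inhibitor of thioredoxin, by 1.53 ± 0.17 (limma, adjusted p = 1.52e-04 and 0.00170). The count was 2 without control replicate 1, 2 or 3 or DES replicate 2, and 6 without DES replicate 1 or with arrayWeights. With calcium 3 of 7 rose and 0 fell (median 1.18), beside 4.6% of all genes called higher, among them the cyclin-dependent kinase inhibitors CDKN1A, by 3.15 ± 0.35, and CDKN2B, by 1.90 ± 0.38 (limma, adjusted p = 0.0120 and 0.0420). The count with calcium was 0 without control replicate 1, 1 without control replicate 2, and 2 without control replicate 3, calcium replicate 1 or calcium replicate 3, and it was 1 without the filter. Between DES with calcium and calcium 2 of 7 rose and 2 fell (median 0.53), beside 18.5% of all genes called higher and 16.5% lower. GADD45A rose by 1.47 ± 0.19 and TXNIP by 0.91 ± 0.21, while CDKN1A fell by 1.54 and CDKN2B by 1.87 on the log2 scale (limma, adjusted p = 0.00338, 0.0186, 0.0145 and 0.0134). No gene of the list was called there without the filter, and 1 rose and 1 fell without DES with calcium replicate 1. For CDKN1A and CDKN2B the interactions of -2.55 and -2.60 passed (limma, adjusted p = 0.0300 and 0.0348), though no gene of the list passed the interaction with all 7 groups in 1 fit or without the filter.

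G1/S genes, which mark cells entering S phase, are given as context because MYC and the MXD proteins are tied to the cell cycle. The list was chosen with earlier results of these data known. It holds CCNE1, CCNE2, CDC6, MCM6, MCM7, PCNA and TYMS, which the authors list as down-regulated with calcium, cadmium and GSK4716 in these libraries. Its counts are therefore no independent evidence beside the share of all genes. With calcium 14 of 16 fell and 0 rose (median -1.87), beside 2.53% of all genes called lower, with MCM2, a helicase subunit, at -2.65 and E2F2, a transcription factor of S phase entry, at -2.53 (limma, adjusted p = 0.0208 and 0.0102). The count rested on each library but 1: it was 0 without control replicate 1, 2 without control replicate 2, and 4, 6 and 7 without calcium replicate 1, 2 and 3, while the median stayed between -2.11 and -1.57. It was also 0 with all 7 groups in 1 fit and 1 without the filter on low values. With cadmium and with GSK4716 0 of 16 passed (limma), with medians of -2.22 and -1.35, all 16 below 0, and 12 and 15 at an unadjusted p under 0.05, as were 25.9% and 16.4% of all genes. For cadmium 10 fell without cadmium replicate 1, 3 with all 7 groups in 1 fit, 16 with arrayWeights and 0 with limma-voom. For GSK4716 13 fell with arrayWeights and 8 with limma-voom. With DES 1 rose and 3 fell, with a median of -0.12, beside 16.7% of all genes called higher and 12.9% lower. The 3 falls became 0 without control replicate 2, DES replicate 2 or the filter and with all 7 groups in 1 fit, and 1 without control replicate 1, and the median turned to 0.048 without control replicate 2. Between DES with calcium and calcium 12 rose and 0 fell (median 1.499), beside 18.5% of all genes called higher, with a count of 10 to 14 when a library was left out, 5 with all 7 groups in 1 fit and 1 without the filter. MXD3 and the G1/S genes fell in the same comparison, in which MYC did not pass. The proportion of cells in each phase was not measured here, and its part in these values was not tested.

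**Figure D5:**
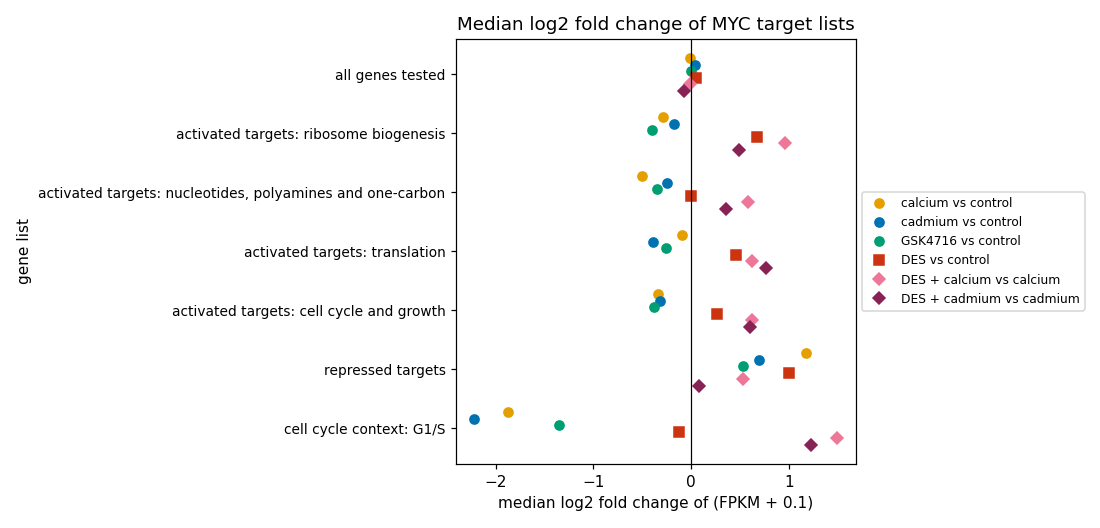
Median log2 fold change of (FPKM + 0.1) of each gene list (rows) in 6 comparisons; circles are treatments without DES against control, the square is DES against control and the diamonds are DES with a metal against that metal, with the median of all genes tested on the top row. For ribosome biogenesis the circles lie at -0.40 to -0.18 and the square and diamonds at 0.49 to 0.96.

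Some luminal markers passed with DES and some with calcium. FOXA1 and GATA3, transcription factors of luminal cells, fell with DES by 1.17 ± 0.25 and 1.11 ± 0.19 on the log2 scale (limma, adjusted p = 0.0155 and 0.00774). KRT8 and KRT18, luminal keratins, rose with calcium by 1.79 ± 0.28 and 1.65 ± 0.27 (limma, adjusted p = 0.0227 and 0.0246), as 2 of 9 luminal markers, of which 4 were below 0, beside 4.6% of all genes called higher. Neither was called with the replicate block, without the filter, without control replicate 1 or 2, or without calcium replicate 1 or 2. The part of these changes in those of the network was not tested.

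For each tested member the genes whose log2(FPKM + 0.1) ran most alike over the 21 libraries were taken from 12244 genes, as a description only. The libraries fall into 7 groups, so a gene that answers to DES will resemble any other that does. MYC was most like GAR1, an H/ACA ribonucleoprotein (Pearson r = 0.752), RPS10, a ribosomal protein (0.735), and PSMG4, a proteasome assembly chaperone (0.729). MXD1 was most like SLC25A33, a mitochondrial pyrimidine carrier (0.951), AC007285.1 (0.947) and AL031710.2 (0.945), and MNT most like KHNYN (0.957), MOGS, a glucosidase of N-glycan processing (0.954), and LRCH3 (0.950). MYCL was most like MIR6165 (0.898), AL139156.2 (0.868) and SNX33, a sorting nexin (0.864). MXD4 was most like TRIOBP (0.902), ACTR1B (0.893) and CTBP1, a corepressor (0.862), and MXI1 most like ATP6V1A, a subunit of the vacuolar proton pump (0.851), DNAJB4 (0.824) and HIST1H2BF (0.820). MAX had the lowest values, with CHMP4C (0.734), AC010487.1 (0.699) and CEBPB (0.690).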

How the data were processed

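RNA-seq of 21 libraries was analysed from 1 deposited table. The FPKM values were made by the authors from paired reads, with HISAT2 2.0.5, featureCounts 1.5.0-p3 and GRCh38.p14 named in the submitters' processing notes. The authors' FPKM carry a scaling between libraries, 0.693 to 1.15 times the fragments on genes (14435925 to 28424805). Multiplying by gene length and by a library size recovered from the values of each library gave whole fragments in 100% of values (tolerance 0.01). Strandedness is stated in both ways in the sources used here.

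Log2(FPKM + 0.1) of 14686 genes with a mean of at least 0.5 FPKM was fitted with limma 3.58.1 (R 4.3.3; lmFit, eBayes with trend) on the groups of each of 10 comparisons, with Benjamini-Hochberg adjustment and a threshold of 0.05. MYCN fell under the minimum and was read from the fit without it. Fold changes of low genes are understated on this scale. The script was tested on simulated data. Named genes were the members, the 2 largest called rises and 2 largest called falls of each network and target list with a mean of at least 1 FPKM, and the 3 genes most alike to each tested member. MGA, MLX, HUWE1, the G1/S genes and the luminal and other cell markers fall outside that rule and were named after their values were seen. The members and lists were chosen with earlier results of these data known. Several G1/S genes, MYCN and CDKN2B are on the authors' list of genes changed with calcium, cadmium and GSK4716. Alternatives were pseudocount 1, filters, scalings, array weights, a replicate block, limma-voom and leaving out each library. Some list genes are not reported here.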

Additional observations from a re-analysis of the deposited data

How the results depend on the processing

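In the main fit 7 members were tested. MYCN, under the filter, joined them only without it, with total fragments and with a minimum of 10 fragments. Counts of members called moved under the alternatives below, and the cause was not tested. With arrayWeights they were 1 for calcium, 2 for cadmium, 1 for GSK4716, 5 for DES, 1 and 1 for DES with calcium and DES with cadmium against DES, 5 for DES with cadmium against cadmium, and 1 and 1 for the interactions. A minimum of 10 fragments, chosen after seeing the data, let MYCN in and gave 1 of 8 for cadmium, MYCN itself. All 7 groups in 1 fit gave 1 for DES with calcium against DES and 3 for DES with cadmium against cadmium. For DES the count of 3 went to 2 without the filter and without control replicate 1 or 2. With a minimum of 2 FPKM it was 2 of 6, as MYCL at a mean of 1.74 FPKM was not tested. It went to 4 with total fragments, quantile normalization and without DES replicate 1 or 3. For DES with calcium against calcium the count of 3 went to 1 without the filter, and to 2 with all 7 groups in 1 fit and without any 1 library except calcium replicate 3. For DES with cadmium against cadmium the count was 0 without a filter, 2 with quantile normalization, 2 with limma-voom and 0 to 1 when a library was left out.

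With the replicate number as a block, DES with cadmium against cadmium gave 0 members in place of 1, and no other count of members changed. Same-numbered libraries deviated together (every correlation over 0.1) only for DES with calcium against DES (0.132, 0.103 and 0.28) and DES with cadmium against DES (0.472, 0.121 and 0.313). Elsewhere the numbers were not shown to pair libraries.

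Signs turned only for values short of the threshold among the 46 member comparisons given singly. MYC turned to 0.29 for cadmium with arrayWeights and to 0.0075 for DES with calcium against DES with limma-voom. MYCN turned to 0.23 with quantile normalization and 0.41 with arrayWeights for DES with cadmium against DES. Total fragments turned MAX for DES with calcium against calcium to -0.0033 and the cadmium interaction of MXD1 to -0.0495, and arrayWeights turned that of MNT to -0.112. When a library was left out, MYC ranged from -0.155 to 0.209 for DES with calcium against DES, from -0.344 to 0.203 for DES with calcium against calcium and from -0.335 to 0.301 for DES with cadmium against cadmium. MYCN ranged from -0.639 to 0.048 for DES with calcium against DES and from -1.05 to 0.343 for DES with cadmium against DES, and the cadmium interaction of MXD1 from -0.208 to 0.353. Of 611 alternative values of the other 34 member comparisons, 45 had the opposite sign, none of them called, and 2 were called, both with arrayWeights (MNT for cadmium at 0.59 and MAX for DES with cadmium against cadmium at -0.39).

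Scaling by total fragments moved the calls over all genes for DES from 2447 higher and 1893 lower to 1853 and 2555. For DES with calcium against calcium they went from 2722 and 2426 to 2098 and 3202, and for DES with cadmium against cadmium from 699 and 754 to 362 and 1064. For calcium they went from 675 and 371 to 551 and 568, and for the cadmium interaction from 35 and 138 to 69 and 92 with quantile normalization. With 3 libraries a group, MYCN at 1 to 87 fragments limits what can be read from it.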

Other observations

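Of the 48 tested genes that MYC is known to activate, 39 had a log2 fold change below 0 with calcium, 30 with cadmium and 44 with GSK4716, with medians of -0.30, -0.24 and -0.35. Of all 14686 genes 7490, 6887 and 7339 were below 0, with medians of -0.01, 0.04 and 0. At an unadjusted p under 0.05 there were 11, 14 and 24 of the 48 (limma), beside 23.5%, 25.9% and 16.4% of all genes. With cadmium and with GSK4716 0 of the 48 were called (limma), beside 0.15% and 0% of all genes, and with limma-voom 1 and 0. With arrayWeights 6 rose and 24 fell with cadmium, and 1 rose and 8 fell with GSK4716. The 3 comparisons share the control libraries.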
